A study of Homo sapiens with 6 samples.

Results

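Translation initiation factors (symbols that start with EIF and a number) and elongation factors (EEF and a number) were followed in SW480 cells after knockdown of PCYT2. Members were all protein-coding genes with such symbols in GENCODE release 29, without 2 readthrough symbols and 1 Y-linked copy, which gave 68 genes. The 6 libraries together list 19655 genes, and 67 of the 68 members are among them. EIF4E1B, a relative of the cap-binding protein EIF4E, is listed in no library, and EIF4E3 lay at 0.0831 to 0.271 FPKM, below the limit of 0.5 for a test. The other 66 members were tested among 12756 genes.

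SW480 is an established human colorectal cancer line. All libraries came from this line with a hairpin delivered by lentivirus, which according to the study's methods was carried in the pLKO.1 vector and selected with puromycin. The shNT group (2 libraries) carried a nontargeting hairpin as the control, and the shPcyt2-1 and shPcyt2-2 groups (2 libraries each) carried different hairpins against PCYT2, an enzyme of phosphatidylethanolamine synthesis. The study asked which genes lie downstream of PCYT2. The labels do not say whether the 2 libraries of a group came from separate cultures, so every p-value measures only the spread between these libraries, which may be technical. Both hairpins were compared with the same 2 shNT libraries. The values are FPKM, that is fragments per length of the gene and per size of the library, as judged from the numbers alone, and they sum to between 396467 and 402612 per library. The number of reads is unknown. A relative depth, read from the lowest values and set to 1 for shNT replicate 1, was 0.98 for shNT replicate 2, 0.741 and 1 for shPcyt2-1, and 1 and 0.878 for shPcyt2-2.

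PCYT2 itself (ENSG00000185813, chr17:81900965-81911464 of GRCh38) was at 11.6 and 13.8 FPKM with shNT, at 7.11 and 7.36 FPKM with shPcyt2-1, and at 6.71 and 6.18 FPKM with shPcyt2-2. No knockdown library reached the lower of the control libraries. Its log2 fold change was -0.73 (standard error 0.10, limma adjusted p = 0.00205) with shPcyt2-1, against -0.88 (standard error 0.10, limma adjusted p = 0.00261) with shPcyt2-2. The epithelial markers of the line were present in every library: EPCAM at 258 to 312 FPKM, CDH1 at 14.7 to 17.3 FPKM and VIL1 at 38.8 to 44.7 FPKM. CDX2, an intestinal transcription factor, was at 15.5 and 16.9 FPKM with shNT, 10.01 and 9.88 FPKM with shPcyt2-1, and 16.03 and 15.1 FPKM with shPcyt2-2. ASCL2, a factor of intestinal stem cells, was at 57.9 and 73.2 FPKM with shNT, 49.1 and 47.8 FPKM with shPcyt2-1, and 59.3 and 52.2 FPKM with shPcyt2-2. Both were thus lowest in the shPcyt2-1 libraries. KRT8, a keratin, was at 3602 and 3861 FPKM with shNT, 3540.2 and 3649 FPKM with shPcyt2-1, and 2734 and 2874 FPKM with shPcyt2-2. Of 5 markers of fibroblasts, leukocytes and endothelium, PTPRC was at 0 in all libraries and only COL1A1 exceeded 1 FPKM. The 5 markers summed to 1.09 and 1.09 FPKM with shNT, 1.23 and 1.56 FPKM with shPcyt2-1, and 1.65 and 1.76 FPKM with shPcyt2-2, and the part of these markers in the results was not tested. In bulk RNA a smaller share of cells that express a gene and less RNA per cell cannot be told apart.

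Initiation begins when EIF2 delivers the initiator tRNA to the small ribosomal subunit, which EIF1, EIF1AX, EIF3 and EIF5 prepare for scanning, while the EIF4 factors bind the cap of the mRNA and unwind its leader. EIF5B then joins the large subunit. During elongation EEF1A brings each aminoacyl-tRNA, the other EEF1 subunits recharge it with GTP, and EEF2 moves the ribosome along by a codon, an activity that the kinase EEF2K turns off. Many mRNAs of translation factors and ribosomal proteins start with a C and a run of pyrimidines, through which their own translation depends on growth signals.

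The first bases of the transcripts are shown because they are a feature that the choice of genes did not use. RefSeq start sites (GRCh38.p14) were found for 54 of the 68 members. A C at the start followed by at least 4 bases that are each C or T occurred in 13 of the 54 (24.1%) and at 4.07% of all 35116 start sites in the table, or in 5.14% of its 27305 genes at any start. The 30 bases run from 10 before the start, 5′ to 3′ on the gene's strand, and capitals mark the pyrimidine run that begins at the start site.
EEF2: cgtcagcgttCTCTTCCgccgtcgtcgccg
EEF1A1: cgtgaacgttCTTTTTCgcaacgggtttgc
EEF1B2: ctcttcgggtCCTTTTTCCTCTCTTCagcg
EIF2S3: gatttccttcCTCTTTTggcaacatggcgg
EIF3M: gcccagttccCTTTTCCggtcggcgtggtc
EIF3K: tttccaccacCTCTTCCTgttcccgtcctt
EIF4A2: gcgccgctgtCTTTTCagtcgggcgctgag
EIF5B: ctgagaactcacaccatatgtgtcctgttc
They lie at chr19:3985444-3985473 (EEF2, minus strand), chr6:73521013-73521042 (EEF1A1, minus), chr2:206159885-206159914 (EEF1B2, plus), chrX:24054946-24054975 (EIF2S3, plus), chr11:32583821-32583850 (EIF3M, plus), chr19:38619178-38619207 (EIF3K, plus), chr3:186783567-186783596 (EIF4A2, plus) and chr2:99337379-99337408 (EIF5B, plus). EIF5B is shown as a start without the run, and EEF1B2 has another RefSeq start, at chr2:206159599-206159628, that also lacks it. The letters alone say nothing of how an mRNA is translated in these cells.

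Transcripts of these factors changed in both directions with each hairpin, and 1 member, EEF2, passed the test with both. With shPcyt2-1, 19 of the 66 tested members passed the limma test at an adjusted p under 0.05, 14 higher and 5 lower, where 26.7% of all tested genes passed (16.5% higher, 10.1% lower). With shPcyt2-2, 6 passed, 4 higher and 2 lower, where 12.4% of all genes passed (7.69% higher, 4.74% lower). The members' shares, 28.8% and 9.09%, stood near these backgrounds. Besides EEF2, 18 members passed with shPcyt2-1 and 5 with shPcyt2-2. The shares of all tested genes that passed with both hairpins, or with only 1, are not given here. These counts of overlap therefore have no background to be read against. The median log2 fold change of the members was 0.079 with shPcyt2-1 and 0.033 with shPcyt2-2, beside 0.067 and 0.044 for all tested genes. With median-ratio scaling of the libraries, 13 members passed with shPcyt2-1, 5 higher and 8 lower, where 11.6% of all tested genes were higher and 13.4% lower. On leaving out shPcyt2-1 replicate 1 the count with that hairpin was 7 (beside 8.99% of all genes), and on leaving out its replicate 2 it was 10 (beside 14.3%). With shPcyt2-2 it was 16 without shNT replicate 1, 3 without shNT replicate 2 and 2 without shPcyt2-2 replicate 1, where 14.8%, 3.16% and 0.98% of all genes passed.

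The change with shPcyt2-2 differed from that with shPcyt2-1 in 25 of the 66 members by the limma test of the difference itself, 10 higher and 15 lower with shPcyt2-2, where 27.1% of all tested genes differed (12.9% higher, 14.2% lower). The members' share was 37.9%. With median-ratio scaling 21 differed, 11 higher and 10 lower, where 14.4% of all genes were higher and 13.4% lower. Without shPcyt2-1 replicate 1 or 2, 11 and 12 members differed (beside 13% and 16.1% of all genes), and without shPcyt2-2 replicate 1 or 2, 16 and 14 did (beside 18.1% and 14.8%). With the 4 knockdown libraries as 1 group, none of the 66 members passed the limma test and 12 had an unadjusted p under 0.05. Of all genes 0.00784% passed this test and 16.7% had an unadjusted p under 0.05. The mean of the 2 hairpins from the fit with 3 groups gave 14 members, 8 higher and 6 lower, where 16.8% of all genes passed (10.9% higher, 5.85% lower).

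**Figure D1:**
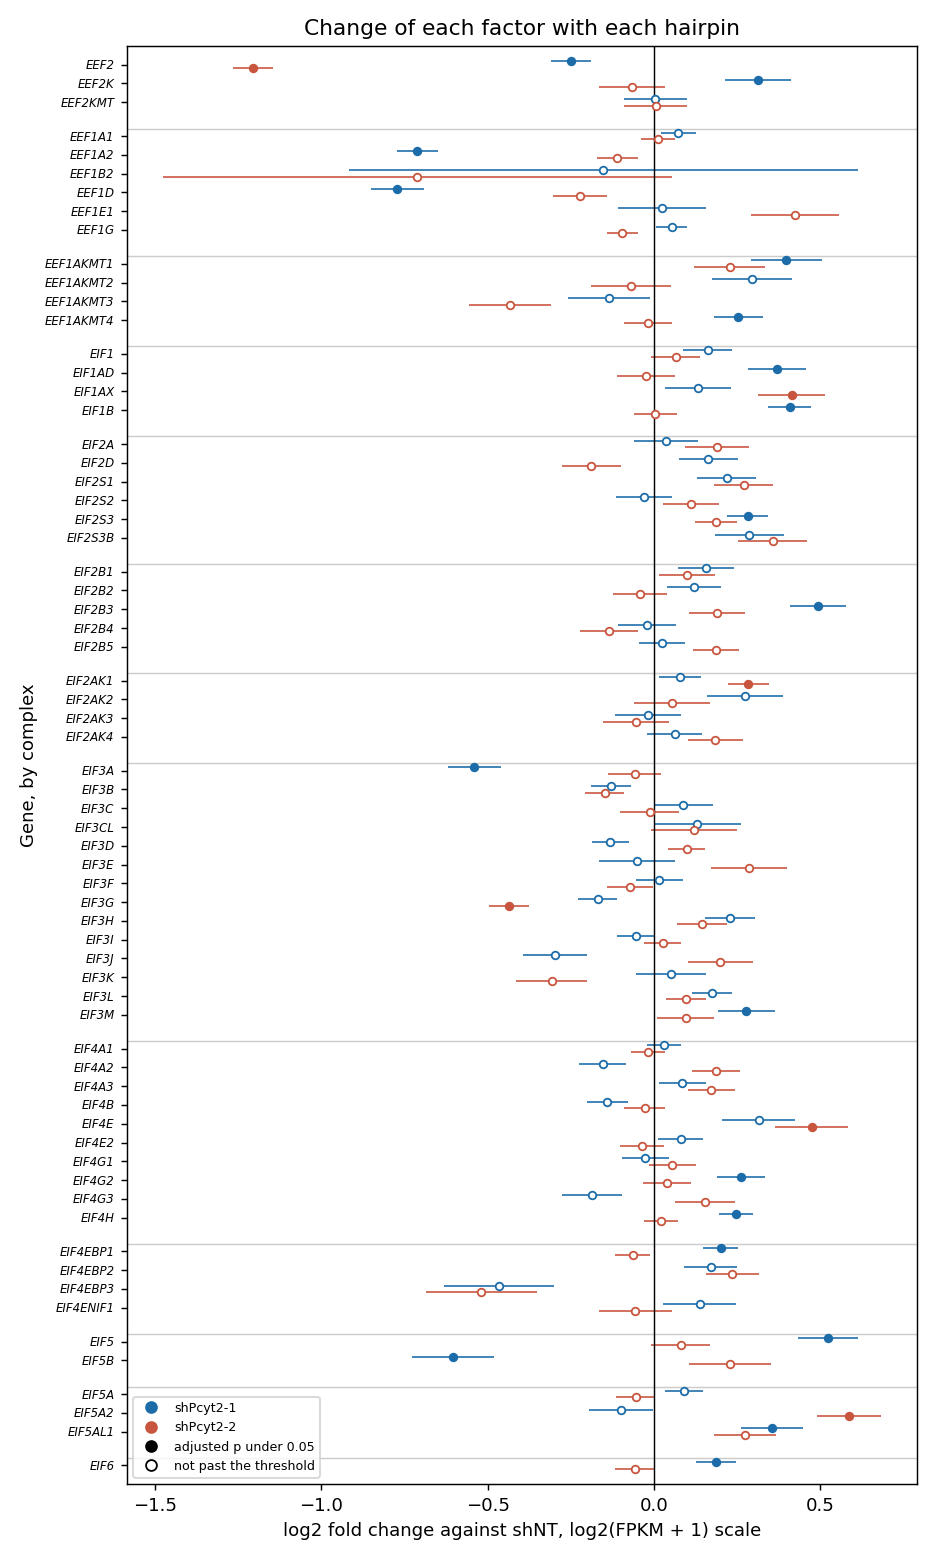
Log2 fold change of each of the 66 tested members against shNT on the log2(FPKM + 1) scale (horizontal axis) for shPcyt2-1 (blue) and shPcyt2-2 (red), grouped by complex. Bars are standard errors from the limma fit (2 libraries per group) and filled points have an adjusted p under 0.05. EEF2 with shPcyt2-2 lies farthest from 0, at -1.21.

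EEF2, the factor that moves the ribosome along the mRNA, fell with both hairpins and by far more with shPcyt2-2. EEF2 (ENSG00000167658, chr19:3976056-3985469 of GRCh38) was at 1073 and 1155 FPKM with shNT, at 911 and 964 FPKM with shPcyt2-1, and at 469 and 496 FPKM with shPcyt2-2. The 3 groups did not overlap. The log2 fold change was -0.25 (standard error 0.06, limma adjusted p = 0.0174) with shPcyt2-1, against -1.21 (standard error 0.06, limma adjusted p = 5.02e-05) with shPcyt2-2. The mean with shPcyt2-2 was 0.43 times that of shNT, and the hairpins differed by -0.96 (limma adjusted p = 3.51e-05). Among the 586 tested genes with at least 100 FPKM in shNT, no other fell as far with shPcyt2-2, and among all 12756 tested genes EEF2 ranked as the 9th largest fall. The values with shPcyt2-2 and the difference kept their call under every alternative, the former between -1.26 and -1.10. The change with shPcyt2-1 lost its call without shNT replicate 2 (-0.19), without shPcyt2-1 replicate 1 (-0.21), with the trend on GC content and length removed (-0.12), with no filter on low values (-0.25) and with no mean-variance trend (-0.25).

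The genes beside EEF2 on chromosome 19 were compared after its values were seen. None of the 5 tested genes on each side passed with shPcyt2-2, where 12.4% of all tested genes passed. Their log2 fold changes ran from -0.58 to 0.14 with a median of -0.11. The lowest was that of MIR637, a gene with low values. It was at 0.727 and 1.22 FPKM with shNT and at 0.137 and 0.51 FPKM with shPcyt2-2. With shPcyt2-1, 4 of the 10 passed, all lower, where 26.7% of all tested genes passed and 10.1% were lower. MAP2K2, a kinase of the ERK pathway, was at 123 and 141 FPKM with shNT and at 67.4 and 67.4 FPKM with shPcyt2-1, and it had the largest fall of the 10 there (-0.96, limma adjusted p = 0.000226). TJP3, a tight junction protein, had -0.96 as well with shPcyt2-1 (limma adjusted p = 0.00158), against 0.14 with shPcyt2-2 (limma adjusted p = 0.462). The genes MAP2K2 and TJP3 are not members.

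**Figure D2:**
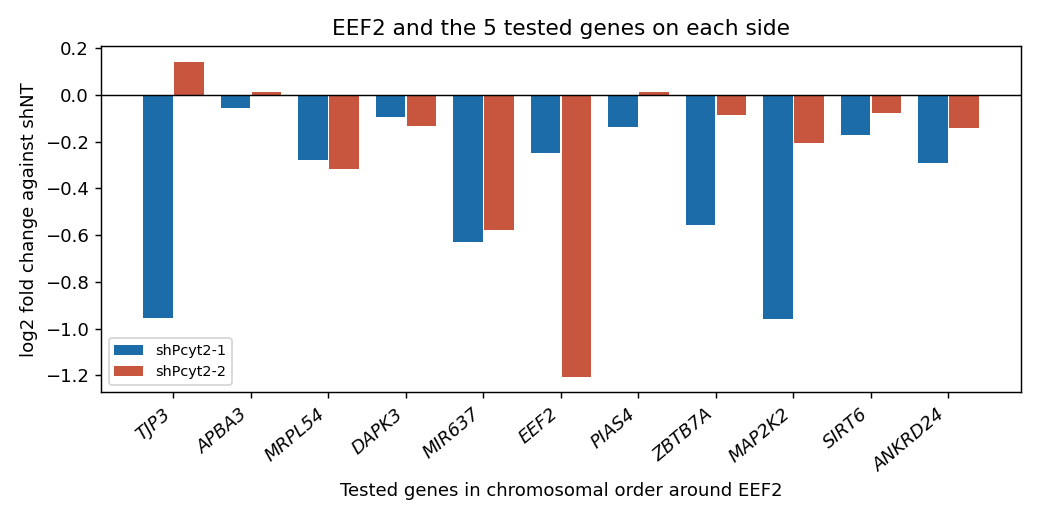
Log2 fold change against shNT (vertical axis) of EEF2 and the 5 tested genes on each side of it in chromosomal order, for shPcyt2-1 (blue) and shPcyt2-2 (red), 2 libraries per group. With shPcyt2-2 the bar of EEF2 reaches -1.21. The lowest neighbor, MIR637, lies at -0.58 and was at 0.137 to 1.22 FPKM in the shNT and shPcyt2-2 libraries.

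EEF2K, the kinase that inactivates EEF2 protein, had few transcripts. It was at 2.95 and 3.25 FPKM with shNT, 4.02 and 4.17 FPKM with shPcyt2-1, and 3.01 and 2.82 FPKM with shPcyt2-2. Both shPcyt2-1 libraries lay above the other 4. The log2 fold change was 0.31 (standard error 0.10, limma adjusted p = 0.0453) with shPcyt2-1, against -0.07 (limma adjusted p = 0.688) with shPcyt2-2, and the hairpins differed by -0.38 (limma adjusted p = 0.0213). The rise with shPcyt2-1 did not pass without any 1 of the shNT or shPcyt2-1 libraries (0.26 to 0.37), nor with median-ratio scaling (0.26). The difference did not pass without either shPcyt2-1 library (-0.40 and -0.36) or shPcyt2-2 replicate 2 (-0.34). EEF2KMT, which methylates EEF2 and was named after its values were seen, ranged from 8.07 to 9.09 FPKM in the 6 libraries, with limma log2 fold changes of 0.0048 and 0.0057.

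The 6 genes with EEF1 symbols are both forms of the tRNA carrier, its exchange subunits and partner, and EEF1E1. Of these, EEF1A2 and EEF1D fell with shPcyt2-1 (33.3%, beside 26.7% of all tested genes) while none of the 6 passed with shPcyt2-2 (beside 12.4%). EEF1A2 (ENSG00000101210, chr20:63488012-63499322), the second form of the tRNA carrier, was at 423 and 440.2 FPKM with shNT, 251 and 276 FPKM with shPcyt2-1, and 392 and 408 FPKM with shPcyt2-2. Both shPcyt2-1 libraries lay far below the rest. The log2 fold change was -0.71 (standard error 0.06, limma adjusted p = 0.000368) with shPcyt2-1, against -0.11 (limma adjusted p = 0.258) with shPcyt2-2. EEF1D (ENSG00000104529, chr8:143579697-143599541), an exchange subunit, was at 188 and 223 FPKM with shNT, 120.1 and 119 FPKM with shPcyt2-1, and 170.1 and 180.5 FPKM with shPcyt2-2. It too was lowest in both shPcyt2-1 libraries, and its log2 fold change was -0.77 (standard error 0.08, limma adjusted p = 0.00076) with shPcyt2-1, against -0.22 (limma adjusted p = 0.0978) with shPcyt2-2. The hairpins differed by 0.60 in EEF1A2 (limma adjusted p = 0.000342) and by 0.55 in EEF1D (limma adjusted p = 0.00164). These calls of EEF1A2 and EEF1D held under every alternative. Of the 5 tested genes on each side, 4 passed around EEF1A2 and 1 around EEF1D with shPcyt2-1, all lower. The medians were -0.17 for each, and 10.1% of all tested genes passed as lower with this hairpin. Of those that passed, HAR1B, COL20A1 and FNDC11 around EEF1A2 and MAFA around EEF1D were low, at 0.249 to 2.56 FPKM. PTK6, near EEF1A2, was at 40.2 to 48.7 FPKM (-0.20 with shPcyt2-1). These genes were named after their values were seen.

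EEF1A1, the main form of the tRNA carrier, had the highest level of all members and passed in no comparison. It was at 3065 and 2899 FPKM with shNT, 3132 and 3140 FPKM with shPcyt2-1, and 3078 and 2937 FPKM with shPcyt2-2. The shNT and shPcyt2-2 libraries overlapped, and the limma log2 fold changes were 0.07 (adjusted p = 0.319) and 0.01 (adjusted p = 0.897). EEF1G, the gamma subunit, was at 1671 and 1646 FPKM with shNT, 1721 and 1722 FPKM with shPcyt2-1, and 1556 and 1549 FPKM with shPcyt2-2. Neither hairpin changed it past the threshold (0.05 and -0.10), while the difference between the hairpins did pass (-0.15, limma adjusted p = 0.0433). This call was lost without any 1 of the 4 knockdown libraries. It was also lost with median-ratio scaling (-0.13), with no filter on low values and with no mean-variance trend. EEF1E1, a scaffold protein of the aminoacyl-tRNA synthetase complex, was at 24.3 and 17.2 FPKM with shNT, 21.6 and 20.1 FPKM with shPcyt2-1, and 26.9 and 28.7 FPKM with shPcyt2-2, with limma adjusted p = 0.909 and 0.0669. EEF1B2, the other exchange subunit, was at 76.1 and 104 FPKM with shNT, 175 and 36.3 FPKM with shPcyt2-1, and 122 and 23.6 FPKM with shPcyt2-2. Its libraries differed more within a group than between groups, and it did not pass with either hairpin. EEF1B2, EEF1D, EEF2K, EIF3K and EIF5A share their values with another identifier in the tables, so their values are less certain. The same holds for the 33 of the 66 tested members that overlap another protein-coding gene in GENCODE, among them EEF1B2, EEF1D, EIF3A, EIF3G, EIF4G2 and EIF5B. The same holds for EEF1A1, whose many processed copies elsewhere in the genome could take part of its reads.

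**Figure D3:**
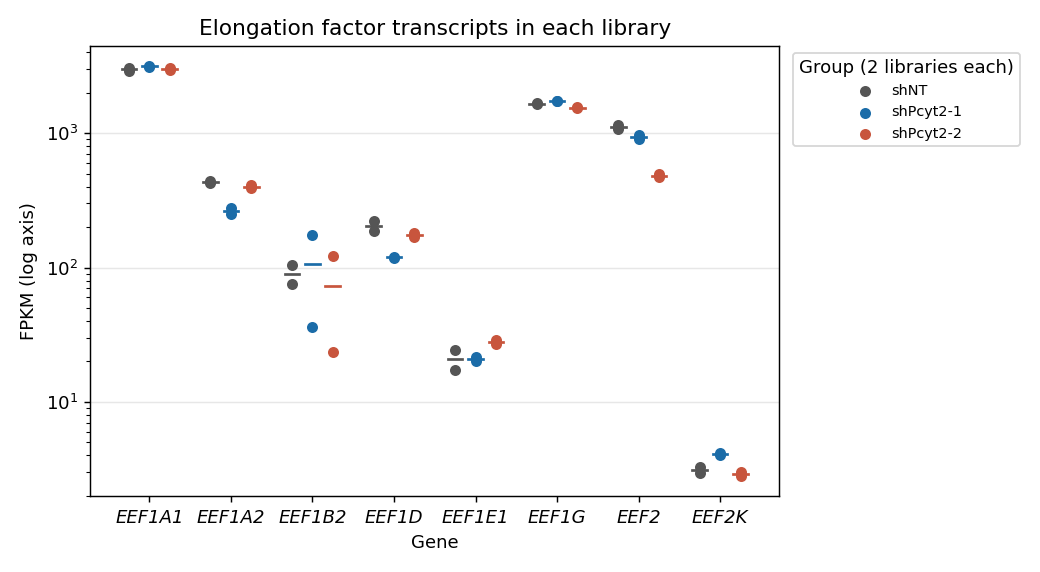
FPKM on a log axis (vertical) of the EEF1 subunits, EEF2 and EEF2K in each of the 6 libraries, with shNT in gray, shPcyt2-1 in blue and shPcyt2-2 in red. Lines are means of the 2 libraries. EEF2 falls from 1073 and 1155 FPKM with shNT to 469 and 496 FPKM with shPcyt2-2, and the 2 points of EEF1B2 lie far apart with both hairpins.

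Of the 4 lysine methyltransferases of EEF1A, 2 rose with shPcyt2-1 (50%, beside 26.7% of all tested genes), and they were named after their values were seen. EEF1AKMT1 was at 4.94 and 4.64 FPKM with shNT, 6.97 and 6.31 FPKM with shPcyt2-1, and 5.30 and 6.31 FPKM with shPcyt2-2. EEF1AKMT4 was at 32.4 and 33.3 FPKM with shNT, 39.99 and 38.8 FPKM with shPcyt2-1, and 30.8 and 34.3 FPKM with shPcyt2-2, and it overlaps a readthrough gene. Their log2 fold changes with shPcyt2-1 were 0.40 (limma adjusted p = 0.0253) and 0.25 (limma adjusted p = 0.032). None of the 4 passed with shPcyt2-2, where 12.4% of all tested genes did.

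The 4 genes with EIF1 symbols are EIF1 and EIF1AX, which act in scanning and start codon recognition, together with EIF1B and EIF1AD, which share part of their symbols. Of the 4, 2 rose with shPcyt2-1 (50%, beside 26.7% of all tested genes) and 1 with shPcyt2-2 (25%, beside 12.4%). EIF1B, a near relative of the scanning factor EIF1, was at 31.1 and 31.1 FPKM with shNT, 41.2 and 42.0 FPKM with shPcyt2-1, and 30.5 and 31.9 FPKM with shPcyt2-2. Both shPcyt2-1 libraries stood apart, with a log2 fold change of 0.41 (standard error 0.06, limma adjusted p = 0.0035) against 0.00 with shPcyt2-2 and a difference of -0.40 (limma adjusted p = 0.00245), and both calls held under every alternative. EIF1AD was at 7.93 and 7.72 FPKM with shNT, 10.8 and 9.99 FPKM with shPcyt2-1, and 7.47 and 7.90 FPKM with shPcyt2-2 (0.37, limma adjusted p = 0.0154, with shPcyt2-1). EIF1AX, which stabilizes the scanning complex, was at 29 and 25.4 FPKM with shNT, 30.7 and 29 FPKM with shPcyt2-1, and 40.1 and 33.2 FPKM with shPcyt2-2. It rose with shPcyt2-2 (0.41, limma adjusted p = 0.0311). EIF1 itself was at 216 and 197 FPKM with shNT, 224 and 239 FPKM with shPcyt2-1, and 205 and 228 FPKM with shPcyt2-2, and did not pass. Calls were lost for EIF1AD without shNT replicate 2 (0.35) or shPcyt2-1 replicate 1 (0.32), and for EIF1AX without shNT replicate 2 (0.32) or shPcyt2-2 replicate 1 (0.28). The rise of EIF1AX was also lost with the trend on GC content and length removed (0.21), with no filter on low values and with no mean-variance trend.

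EIF2 carries the initiator tRNA, and its group here also holds EIF2A and EIF2D, which share part of the symbol. Of the 6 tested genes, 1 rose with shPcyt2-1 (16.7%, beside 26.7% of all tested genes) and none passed with shPcyt2-2 (beside 12.4%). EIF2S3, the gamma subunit that binds GTP and the tRNA, was at 107 and 98.9 FPKM with shNT, 126 and 125 FPKM with shPcyt2-1, and 121 and 115 FPKM with shPcyt2-2. All 4 knockdown libraries lay above both controls, and the log2 fold change was 0.28 (limma adjusted p = 0.0129) with shPcyt2-1, against 0.19 (limma adjusted p = 0.0798) with shPcyt2-2. The call with shPcyt2-1 was lost with median-ratio scaling (0.21) and without either shPcyt2-1 library (0.27 and 0.29), and the value was 0.18, and passed, with the trend on GC content and length removed. EIF2S3 has a near-identical copy, EIF2S3B, that could share its reads. EIF2D, a factor that places tRNA without EIF2, was at 21.3 and 21.4 FPKM with shNT, 25.2 and 23.0 FPKM with shPcyt2-1, and 20.1 and 17.3 FPKM with shPcyt2-2. EIF2D passed with neither hairpin, and its difference between them was -0.35 (limma adjusted p = 0.0179), which did not pass without shPcyt2-1 replicate 1 (-0.29) or shPcyt2-2 replicate 2 (-0.25).

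EIF2B reloads EIF2 with GTP, and EIF2B3, its gamma subunit, was the 1 member of 5 that rose with shPcyt2-1 (20%, beside 26.7% of all tested genes), while none of the 5 passed with shPcyt2-2 (beside 12.4%). EIF2B3 was at 10.5 and 9.37 FPKM with shNT, 14.3 and 14.5 FPKM with shPcyt2-1, and 11.2 and 11.6 FPKM with shPcyt2-2. The log2 fold change of 0.49 (standard error 0.08, limma adjusted p = 0.00448) with shPcyt2-1 held under every alternative, and with shPcyt2-2 it was 0.19 (limma adjusted p = 0.16). EIF2B5, the catalytic subunit, had the highest mean of the 5 over all libraries, while EIF2B4 was slightly higher in shNT (27.18 against 26.96 FPKM). EIF2B5 was at 28 and 26 FPKM with shNT, 27.2 and 27.6 FPKM with shPcyt2-1, and 30.6 and 31.0 FPKM with shPcyt2-2. It did not pass with either hairpin. Among the 4 stress kinases that phosphorylate EIF2, EIF2AK1, the kinase that responds to heme shortage, was at 50.5 and 48.9 FPKM with shNT, 53.1 and 51.9 FPKM with shPcyt2-1, and 62.6 and 59.0 FPKM with shPcyt2-2. It was the 1 of the 4 that rose with shPcyt2-2 (0.28, limma adjusted p = 0.0234), which is 25% beside 12.4% of all tested genes, and none of the 4 passed with shPcyt2-1 (beside 26.7%). The call was lost without shNT replicate 2 (0.26) or either shPcyt2-2 library (0.24 and 0.33). The hairpins differed by 0.21 in EIF2AK1 (limma adjusted p = 0.0382), which did not pass without any 1 of the 4 knockdown libraries (0.17 to 0.25). EIF2AK2, EIF2AK3 and EIF2AK4, named after their values were seen, did not pass with either hairpin and ran from 3.17 to 12.1 FPKM in single libraries. EIF2AK1 overlaps AIMP2, and the strand setting of the counting is not given in the sources used here.

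EIF3 is the large scaffold on the small subunit, and of its 14 tested genes EIF3A fell and EIF3M rose with shPcyt2-1 (14.3%, beside 26.7% of all tested genes), and EIF3G fell with shPcyt2-2 (7.14%, beside 12.4%). EIF3A, the largest core subunit, was at 53.6 and 48.0 FPKM with shNT, 35.9 and 33.4 FPKM with shPcyt2-1, and 51.0 and 46.6 FPKM with shPcyt2-2. Both shPcyt2-1 libraries lay below the other 4, with a log2 fold change of -0.54 (standard error 0.08, limma adjusted p = 0.00278), against -0.06 with shPcyt2-2 and a difference of 0.48 (limma adjusted p = 0.003). EIF3G, an RNA-binding subunit and the most abundant of EIF3 in shNT, was at 212 and 229 FPKM with shNT, 196 and 196 FPKM with shPcyt2-1, and 167 and 159 FPKM with shPcyt2-2. It fell with shPcyt2-2 (-0.43, standard error 0.06, limma adjusted p = 0.00538) and was at -0.17 (limma adjusted p = 0.0648) with shPcyt2-1. EIF3M was at 38.6 and 32.4 FPKM with shNT, 43.6 and 42.5 FPKM with shPcyt2-1, and 38.8 and 36.9 FPKM with shPcyt2-2. Its rise of 0.28 (limma adjusted p = 0.0423) was lost with median-ratio scaling (0.21) and on leaving out any 1 library but shNT replicate 1, at values of 0.15 to 0.30. It was 0.14, and did not pass, with the trend on GC content and length removed. The calls of EIF3A held under every alternative, and EIF3G lost its call with shPcyt2-2 only with no filter on low values.

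Between the hairpins 5 of the 14 EIF3 genes differed (35.7%, beside 27.1% of all tested genes): EIF3A, EIF3J and EIF3D were higher and EIF3G and EIF3K lower with shPcyt2-2. EIF3J, a loosely bound subunit at the mRNA channel, was at 29.4 and 24.6 FPKM with shNT, 22.0 and 21.4 FPKM with shPcyt2-1, and 33.2 and 29.1 FPKM with shPcyt2-2 (difference 0.50, limma adjusted p = 0.00628, and 0.41 without shPcyt2-2 replicate 1, where it did not pass). EIF3K was at 124 and 152 FPKM with shNT, 129.8 and 156 FPKM with shPcyt2-1, and 111 and 111 FPKM with shPcyt2-2. Its difference was -0.36 (limma adjusted p = 0.0345), lost without shPcyt2-1 replicate 2 (-0.23) and without either shPcyt2-2 library (-0.36 for each), and also with median-ratio scaling (-0.34), with no mean-variance trend and with no filter on low values (-0.36 for both). EIF3D, a cap-binding subunit named after its values were seen, was at 157 and 160.4 FPKM with shPcyt2-1 and at 184 and 188 FPKM with shPcyt2-2 (limma adjusted p = 0.0165). EIF3C and its near-identical copy EIF3CL cannot be told apart with certainty, so they were also summed, after their values were seen. The sum was 105 and 109 FPKM with shNT, 118 and 115 FPKM with shPcyt2-1, and 118 and 107 FPKM with shPcyt2-2. The groups of that sum overlapped in part.

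**Figure D4:**
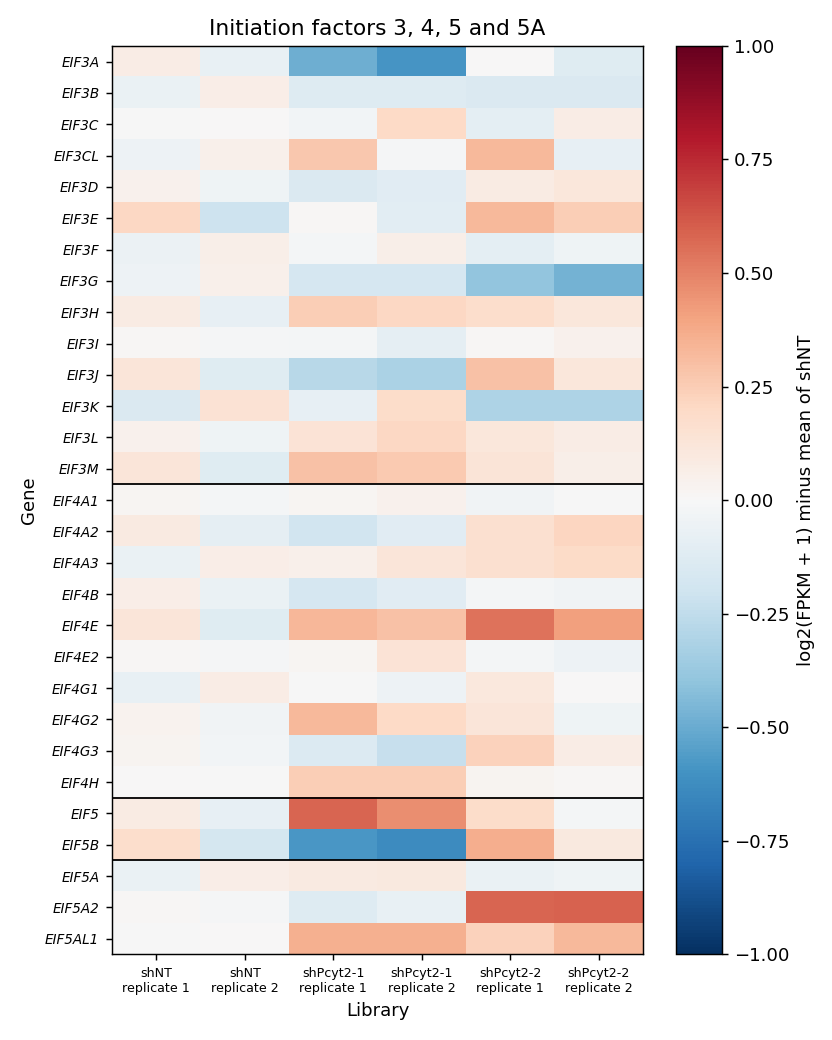
Log2(FPKM + 1) of EIF3, EIF4, EIF5 and EIF5A genes (rows) in each of the 6 libraries (columns) minus the gene's mean in shNT, from blue (lower) to red (higher). EIF3A and EIF5B are blue and EIF5 red in both shPcyt2-1 libraries, and EIF5A2 is red in both shPcyt2-2 libraries.

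Among the 10 tested EIF4 genes, the cap-binding protein EIF4E rose with shPcyt2-2 (10% of these genes, beside 12.4% of all tested genes) and the cofactors EIF4G2 and EIF4H rose with shPcyt2-1 (20%, beside 26.7%). EIF4E was at 4.26 and 3.46 FPKM with shNT, 5.11 and 4.94 FPKM with shPcyt2-1, and 6.04 and 5.43 FPKM with shPcyt2-2. Every knockdown library lay above both controls, with a log2 fold change of 0.47 (standard error 0.11, limma adjusted p = 0.0276) with shPcyt2-2 and 0.32 (limma adjusted p = 0.0634) with shPcyt2-1. EIF4H, which aids the helicase, was at 222 and 219.7 FPKM with shNT, 262 and 263 FPKM with shPcyt2-1, and 225 and 223 FPKM with shPcyt2-2 (0.25, limma adjusted p = 0.00936, with shPcyt2-1). EIF4G2, a scaffold used by mRNAs that do not depend on the cap, was at 138 and 132 FPKM with shNT, 169 and 156 FPKM with shPcyt2-1, and 147 and 131 FPKM with shPcyt2-2 (0.26, limma adjusted p = 0.0275, with shPcyt2-1). Both shPcyt2-1 libraries were the highest of the 6 for EIF4H and EIF4G2. The rise of EIF4H was lost with median-ratio scaling (0.17) and without either shPcyt2-1 library (0.25 for each), and that of EIF4G2 under median-ratio scaling (0.19) or without shNT replicate 2 (0.23) or shPcyt2-1 replicate 1 (0.20). With the trend on GC content and length removed, the value of EIF4G2 was 0.15 and did not pass. EIF4E lost its call without shNT replicate 2 (0.35) or either shPcyt2-2 library (0.41 and 0.54).

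The helicase EIF4A1, the most abundant EIF4 gene, was at 459 and 445 FPKM with shNT, 458 and 466 FPKM with shPcyt2-1, and 442 and 452 FPKM with shPcyt2-2. It did not pass in any comparison, and a readthrough gene overlaps it. EIF4A2, the second form of the helicase, was at 180.1 and 158 FPKM with shNT, 147 and 156 FPKM with shPcyt2-1, and 189 and 196 FPKM with shPcyt2-2. Its log2 fold changes of -0.15 and 0.19 did not pass, while the difference of 0.34 between the hairpins did (limma adjusted p = 0.00855). EIF4G3, a scaffold of the cap complex, was at 10.4 and 9.98 FPKM with shNT, 9.17 and 8.52 FPKM with shPcyt2-1, and 12.2 and 10.8 FPKM with shPcyt2-2 (difference 0.34, limma adjusted p = 0.0226). These differences were lost for EIF4A2 without shPcyt2-1 replicate 1 (0.30) or shPcyt2-2 replicate 2 (0.31), and for EIF4G3 without either shPcyt2-1 library (0.39 and 0.29) or shPcyt2-2 replicate 1 (0.26). Of the 4 tested EIF4E binding protein genes, 1 passed with shPcyt2-1, which is 25% beside 26.7% of all tested genes. None of them passed with shPcyt2-2 (beside 12.4%). EIF4EBP3, named after its values were seen, was lower in every knockdown library than in both controls (-0.47 and -0.52) and did not pass. EIF4EBP1, a repressor that holds EIF4E away from the scaffold, was at 211 and 212 FPKM with shNT, 239 and 248 FPKM with shPcyt2-1, and 202 and 203 FPKM with shPcyt2-2. It rose with shPcyt2-1 (0.20, limma adjusted p = 0.0228), not with median-ratio scaling (0.13), with no mean-variance trend (0.20) nor without either shPcyt2-1 library (0.23 and 0.18). With the trend on GC content and length removed its value was 0.43 (limma adjusted p = 0.00236). In EIF4EBP1 the hairpins differed by -0.26 (limma adjusted p = 0.00644). This difference was lost without shPcyt2-1 replicate 2 (-0.24).

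EIF5 and EIF5B, which act at start codon recognition and at joining of the large subunit, moved in opposite directions with shPcyt2-1. EIF5 was at 38.3 and 34.3 FPKM with shNT, 54.6 and 50.5 FPKM with shPcyt2-1, and 41.3 and 35.6 FPKM with shPcyt2-2. EIF5B was at 24.6 and 19.1 FPKM with shNT, 14.2 and 13.7 FPKM with shPcyt2-1, and 28.2 and 23.2 FPKM with shPcyt2-2. The shPcyt2-1 libraries were the highest of all for EIF5 and the lowest of all for EIF5B. EIF5 rose by 0.52 (standard error 0.09, limma adjusted p = 0.00461) and EIF5B changed by -0.60 (standard error 0.12, limma adjusted p = 0.00936) with shPcyt2-1, while neither passed with shPcyt2-2 (0.08 and 0.23). The hairpins differed by -0.44 in EIF5 (limma adjusted p = 0.00738) and by 0.83 in EIF5B (limma adjusted p = 0.00181). The rise of EIF5 and the difference in EIF5B held under every alternative, the fall of EIF5B was lost only with no filter on low values, and the difference in EIF5 only without shPcyt2-2 replicate 2 (-0.34).

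EIF5A, which eases peptide bonds that stall and carries hypusine, was at 577 and 635 FPKM with shNT, 643 and 647 FPKM with shPcyt2-1, and 579 and 586 FPKM with shPcyt2-2, and did not pass. Its second form EIF5A2 was at 2.63 and 2.59 FPKM with shNT, 2.31 and 2.43 FPKM with shPcyt2-1, and 4.4 and 4.44 FPKM with shPcyt2-2. Both shPcyt2-2 libraries lay well above the other 4, at 1.69 times the shNT mean. EIF5A2 rose with shPcyt2-2 (0.59, standard error 0.10, limma adjusted p = 0.00908) and the hairpins differed by 0.69 (limma adjusted p = 0.00137), which held under every alternative. The rise itself was lost with no filter on low values and without shNT replicate 2 (0.58) or shPcyt2-2 replicate 1 (0.59), and it was 0.37, still past the threshold, with the trend on GC content and length removed. EIF5AL1, a copy of EIF5A that could take its reads, was at 3.81 and 3.84 FPKM with shNT, 5.17 and 5.18 FPKM with shPcyt2-1, and 4.66 and 5.03 FPKM with shPcyt2-2 (0.36, limma adjusted p = 0.0236, with shPcyt2-1), a call that was lost without any 1 of the shNT or shPcyt2-1 libraries. EIF6, which keeps the ribosomal subunits apart, was at 239 and 258 FPKM with shNT, 281 and 286 FPKM with shPcyt2-1, and 232 and 246 FPKM with shPcyt2-2. It rose with shPcyt2-1 (0.19, limma adjusted p = 0.0471), and the call was lost with median-ratio scaling (0.11) and without any 1 library but shNT replicate 2. With the trend on GC content and length removed EIF6 was at 0.30 and passed (limma adjusted p = 0.00269). The hairpins differed by -0.24 in EIF6 (limma adjusted p = 0.0168), lost with median-ratio scaling (-0.22) and without either shPcyt2-1 library (-0.26 and -0.23) or shPcyt2-2 replicate 1 (-0.20).

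Levels of the members in shNT spanned a wide range per length. EEF1A1 (2982 ± 118 FPKM, SD, n = 2), EEF1G (1658 ± 18.0 FPKM, SD, n = 2) and EEF2 (1114 ± 58.2 FPKM, SD, n = 2) led, and they ranked 7th, 23rd and 46th among the 19655 genes. EIF5A, EIF4A1 and EEF1A2 followed, and EEF1AKMT2 was the lowest of the tested members at 2.50 ± 0.441 FPKM (SD, n = 2). EIF4H and EIF3G, at 220.7 and 220.5 FPKM, were neighbors in that order that did not differ beyond their spread. All members together summed to 11282 and 11183 FPKM with shNT, 11250 and 11231 FPKM with shPcyt2-1, and 10589 and 10362 FPKM with shPcyt2-2. The EEF genes among them summed to 6575 and 6539 FPKM with shNT, 6399 and 6340 FPKM with shPcyt2-1, and 5866 and 5679 FPKM with shPcyt2-2. The EIF genes summed to 4707 and 4644 FPKM with shNT, 4851 and 4891 FPKM with shPcyt2-1, and 4722 and 4683 FPKM with shPcyt2-2. The EEF sum was thus lowest in both shPcyt2-2 libraries and the EIF sum highest in both shPcyt2-1 libraries. EEF2, whose mean was 1114 FPKM with shNT and 482 FPKM with shPcyt2-2, was the only EEF gene that passed with shPcyt2-2.

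With shPcyt2-1, members with the pyrimidine start described above were called in both directions, and so were those without it. Whether the sets differ was not tested. Of the 13, 2 were higher and 1 lower with shPcyt2-1 (23.1% called), and EEF2 alone passed with shPcyt2-2 (7.69%). Of the 39 tested members with an entry and no such start, 10 were higher and 1 lower with shPcyt2-1 (28.2% called), and 3 were higher with shPcyt2-2 (7.69%). Between the hairpins 5 of the 13 (38.5%) and 14 of the 39 (35.9%) differed. Of all tested genes 26.7%, 12.4% and 27.1% passed in these comparisons.

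Other translation genes were counted by lists fixed by symbol. Among 14 genes for poly(A) binding and mRNA partners, 6 were higher and 1 lower with shPcyt2-1, and 4 higher and 2 lower with shPcyt2-2 by limma, with medians of 0.18 and 0.20. These are 50% and 42.9% of the list, beside 26.7% and 12.4% of all tested genes. PAIP2, which displaces the poly(A)-binding protein, was at 47.7 and 43.4 FPKM with shNT, 31.1 and 33.4 FPKM with shPcyt2-1, and 60.5 and 57.0 FPKM with shPcyt2-2. It fell with shPcyt2-1 (-0.49, limma adjusted p = 0.00308) and rose with shPcyt2-2 (0.36, limma adjusted p = 0.0185), a difference of 0.85 (limma adjusted p = 0.000158). PABPC4, a poly(A)-binding protein, was at 59.1 and 64.3 FPKM with shNT, 66.1 and 68.7 FPKM with shPcyt2-1, and 40.6 and 39.5 FPKM with shPcyt2-2 and fell with shPcyt2-2 (-0.61, limma adjusted p = 0.00247). NCBP2, the small subunit of the nuclear cap-binding complex, rose with shPcyt2-1 (0.24, limma adjusted p = 0.0381) and also with shPcyt2-2 (0.52, limma adjusted p = 0.00538), and LARP4, a poly(A) tail binding protein, rose with shPcyt2-1 (0.40, limma adjusted p = 0.0338). The fall of PAIP2 with shPcyt2-1, its difference and the fall of PABPC4 held under every alternative. The rise of PAIP2 with shPcyt2-2 was lost without shNT replicate 2 (0.30) or either shPcyt2-2 library (0.32 and 0.40), and that of NCBP2 with shPcyt2-2 without shPcyt2-2 replicate 1 (0.54). NCBP2 with shPcyt2-1 lost its call without any 1 library but shNT replicate 1, and LARP4 without shNT replicate 2 (0.29) or either shPcyt2-1 library (0.35 and 0.44). With the trend on GC content and length removed, these values of NCBP2 (0.12) and LARP4 (0.24) did not pass, and the rise of PAIP2 with shPcyt2-2 was 0.23 and passed.

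Of 14 kinases, phosphatases and related genes that act on the factors, 2 rose and 1 fell with each hairpin, which is 21.4% of the list beside 26.7% of all tested genes with shPcyt2-1 and 12.4% with shPcyt2-2. MKNK2, a kinase of EIF4E, was at 95.3 and 101 FPKM with shNT, 62.6 and 65.9 FPKM with shPcyt2-1, and 118 and 127 FPKM with shPcyt2-2. It fell with shPcyt2-1 (-0.61, limma adjusted p = 0.000937) and rose with shPcyt2-2 (0.31, limma adjusted p = 0.0207), a difference of 0.92 (limma adjusted p = 7.07e-05). PPP1CA, a catalytic subunit of protein phosphatase 1, was at 128 and 139.5 FPKM with shNT, 156 and 144 FPKM with shPcyt2-1, and 95.2 and 92.7 FPKM with shPcyt2-2, and fell with shPcyt2-2 (-0.51, limma adjusted p = 0.00447). PPP1R15B, which directs that phosphatase to EIF2, rose with shPcyt2-2 (0.52, limma adjusted p = 0.0108), and PPP1CB, another catalytic subunit, rose with shPcyt2-1 (0.42, limma adjusted p = 0.00936). The rise of MKNK2 was lost with median-ratio scaling (0.26) and without either shPcyt2-2 library (0.36 and 0.26). The calls of PPP1CA (-0.53) and PPP1R15B (0.42) with shPcyt2-2 were lost without shPcyt2-2 replicate 1. That of PPP1CB was lost without shPcyt2-1 replicate 1 (0.37). With no filter on low values, these calls and the rise of MKNK2 were lost as well. The rise of PPP1CB was 0.25, and passed, with the trend on GC content and length removed.

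Of 9 hypusine and diphthamide enzymes, which modify EIF5A and EEF2, 2 rose and 2 fell with shPcyt2-1 and 1 rose and 1 fell with shPcyt2-2 (44.4% and 22.2%, beside 26.7% and 12.4% of all tested genes). DNAJC24, which takes part in diphthamide synthesis, was at 3.87 and 3.62 FPKM with shNT, 6.10 and 5.18 FPKM with shPcyt2-1, and 5.77 and 5.86 FPKM with shPcyt2-2. It rose with shPcyt2-1 (0.48, limma adjusted p = 0.0107) and also with shPcyt2-2 (0.52, limma adjusted p = 0.016). DPH3, of the same pathway, rose with shPcyt2-1 (0.42, limma adjusted p = 0.0285), and DOHH, the last enzyme of hypusine synthesis, fell with shPcyt2-2 (-0.42, limma adjusted p = 0.0359). All 4 calls were lost without shNT replicate 2 (0.45 and 0.49 for DNAJC24, 0.28 for DPH3 and -0.29 for DOHH), and that of DOHH also with the trend on GC content and length removed (-0.24), where the rise of DNAJC24 with shPcyt2-1 was 0.32 and passed. Leaving out a knockdown library also ended the calls of DNAJC24 with shPcyt2-1 (0.38 without replicate 1) and with shPcyt2-2 (0.53 and 0.51 without replicate 1 and 2), of DPH3 (0.36 and 0.48 without shPcyt2-1 replicate 1 and 2) and of DOHH (-0.36 and -0.48 without shPcyt2-2 replicate 1 and 2).

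None of the 7 tested termination and recycling genes passed the limma test with shPcyt2-1 or shPcyt2-2, where 26.7% and 12.4% of all tested genes passed, and 3 differed between the hairpins (42.9%, beside 27.1% of all tested genes). DENR, which recycles the small subunit, was at 20.7 and 20.03 FPKM with shPcyt2-1 and 28.4 and 25.3 FPKM with shPcyt2-2 (difference 0.38, limma adjusted p = 0.0111). PELO, a ribosome rescue factor, was at 9.49 and 9.65 FPKM with shPcyt2-1 and 7.42 and 7.67 FPKM with shPcyt2-2 (difference -0.31, limma adjusted p = 0.0261). The difference in DENR was lost without shPcyt2-1 replicate 2 (0.36) or shPcyt2-2 replicate 1 (0.30), and that in PELO without any 1 knockdown library. Of 10 mitochondrial factors 3 rose with shPcyt2-1 (30%, beside 26.7% of all tested genes) and none passed with shPcyt2-2. GFM1 and GFM2, the mitochondrial elongation and recycling factors, rose by 0.47 and 0.40 with shPcyt2-1 (limma adjusted p = 0.0104 and 0.0181), and both calls were lost without shNT replicate 2 (0.42 and 0.28) or shPcyt2-1 replicate 1 (0.37 and 0.40), that of GFM2 also without shPcyt2-1 replicate 2 (0.39). Neither of the 2 selenocysteine genes passed with a hairpin, and SECISBP2, which binds the selenocysteine element, differed between them (0.39, limma adjusted p = 0.008), lost without either shPcyt2-1 library (0.40 and 0.39).

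The 78 tested cytosolic ribosomal protein genes, whose products the factors act on, had 5 higher and 12 lower with shPcyt2-1 and 4 higher and 3 lower with shPcyt2-2 by limma, with medians of -0.056 and 0.029. These are 21.8% and 8.97% of the list, below the 26.7% and 12.4% of all tested genes. RPL17, a protein of the large subunit, was at 910.3 and 774 FPKM with shNT, 449 and 488 FPKM with shPcyt2-1, and 918 and 924 FPKM with shPcyt2-2. It fell with shPcyt2-1 (-0.84, limma adjusted p = 0.000477) and the hairpins differed by 0.97 (limma adjusted p = 9.88e-05), both under every alternative. RPS9 fell (-0.40, limma adjusted p = 0.00597) and RPS26 rose (0.39, limma adjusted p = 0.00447) with shPcyt2-1, and RPS26 rose with shPcyt2-2 as well (0.28, limma adjusted p = 0.0288). RPS9 lost its call without shPcyt2-1 replicate 1 (-0.35), and RPS26 with shPcyt2-2 lost its call under median-ratio scaling (0.23) or without shNT replicate 2 (0.23) or either shPcyt2-2 library (0.34 and 0.22). RPS25 was higher with shPcyt2-2 than with shPcyt2-1 (0.45, limma adjusted p = 0.00577). Ribosomal protein genes have many processed copies, so their values are less certain.

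**Figure D5:**
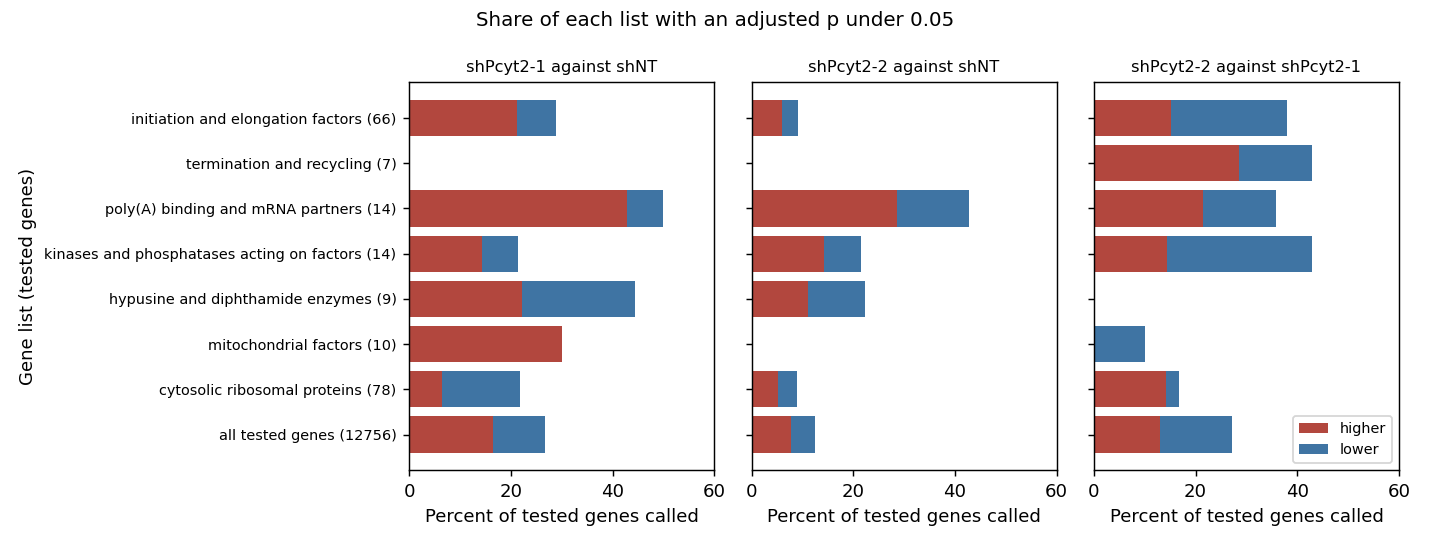
Percent of the tested genes of each list (rows, number tested in parentheses) with a limma adjusted p under 0.05 (horizontal axis), higher in red and lower in blue, for shPcyt2-1 against shNT, shPcyt2-2 against shNT and shPcyt2-2 against shPcyt2-1. The factors reach 28.8%, 9.09% and 37.9%, beside 26.7%, 12.4% and 27.1% of all tested genes.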

How the data were processed

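RNA-Seq was done on 6 SW480 libraries in 3 groups of 2. The authors deposited 1 table per library with Ensembl identifiers and a normalized value that was read as FPKM from the values (not whole, similar sums). TPM over part of the genes was not told apart from it. The aligner and its version are not given in the sources used here. The submitters' processing notes name GRCh38, GRCm38 and mm10 with no role, and 2 library kits appear in the labels with no sample assigned to either. The tables hold no value for the 13 protein-coding genes of the mitochondrial genome.

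From 21539 identifiers, after summing the 115 that a library repeats and joining 1045 groups whose values are the same in every library (and above 0 in at least 2), 19655 genes remained. GENCODE release 29 gave names and positions. Genes with a mean of at least 0.5 FPKM were fitted with limma 3.58.1 (R 4.3.3, mean-variance trend) on log2(FPKM + 1), which understates the change of low genes, with Benjamini-Hochberg adjustment over all tested genes. A fit with 3 groups gave each hairpin and their difference, and a fit with 2 groups the 4 knockdown libraries. The study's methods name a count model (DESeq), which these values do not allow, and the design had foreseen limma for that case. Both fits were checked on simulated data, which covered each hairpin, the difference between them and the knockdown libraries as 1 group. The simulated spread was drawn from the fit itself, and changes specific to 1 hairpin were placed in a small part of the genes. In the real data 27.1% of tested genes differed between the hairpins. The check therefore does not show how the fit with 2 groups performs on them. Ribosomal and partner lists were fixed by symbol. Named genes were PCYT2, EEF2, EEF2K and the EEF1 subunits, the most abundant member of each other group, and in each group and comparison up to 3 members (2 in other lists) with the largest change among those that passed without overlap of the groups. The values of named genes that passed, and the counts of genes that passed, were also computed under alternatives. These were another pseudocount, limit on low values or scaling, GC and length trends removed, no variance trend, a replicate block and each library left out. The values of EEF1AKMT1, EEF1AKMT4 and EIF3D were not among them. Nor were those of the genes beside EEF2, EEF1A2 and EEF1D, such as MAP2K2 and TJP3. The members, lists and alternatives were chosen with earlier results of these data known. Figures were drawn with matplotlib 3.10.9.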

Additional observations from a re-analysis of the deposited data

Results flagged for a closer look

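These results stand out because the change with shPcyt2-2 minus the change with shPcyt2-1, on the log2(FPKM + 1) scale, had an adjusted p under 0.05 in the limma test of that difference, which uses the 4 knockdown libraries and the spread of all 6. Among elongation genes it was -0.958 in EEF2, -0.38 in EEF2K, 0.602 in EEF1A2, 0.55 in EEF1D and -0.149 in EEF1G. Among initiation genes that were lower with shPcyt2-2 it was -0.404 in EIF1B, -0.394 in EIF1AD, -0.353 in EIF2D, -0.304 in EIF2B3, -0.265 in EIF3G, -0.359 in EIF3K, -0.222 in EIF4G2, -0.226 in EIF4H, -0.265 in EIF4EBP1, -0.443 in EIF5 and -0.244 in EIF6. Among those that were higher with shPcyt2-2 it was 0.207 in EIF2AK1, 0.482 in EIF3A, 0.498 in EIF3J, 0.34 in EIF4A2, 0.34 in EIF4G3, 0.832 in EIF5B and 0.685 in EIF5A2. EEF1AKMT4 (-0.27, limma adjusted p = 0.0233) and EIF3D (0.23, limma adjusted p = 0.0165) also passed and were not run under the alternatives. Of the other 23, the differences in EEF2, EEF1A2, EEF1D, EIF1B, EIF3A, EIF5A2 and EIF5B passed under every alternative. The remaining 16 were lost under at least 1. Those in EEF1G, EIF2B3 (-0.33 to -0.28) and EIF2AK1 (0.17 to 0.25) were lost without any 1 of the 4 knockdown libraries. The difference in EEF1G was also lost with median-ratio scaling (-0.13). With no filter on low values those in EEF1G and EIF2B3 were lost, and with no mean-variance trend those in EEF1G and EIF2AK1. That in EIF3G was lost without shPcyt2-1 replicate 1 or 2 (-0.26 and -0.27) or shPcyt2-2 replicate 2 (-0.23), and those in EIF4G2 (-0.16, -0.28 and -0.14) and EIF4H (-0.23, -0.22 and -0.22) without the same 3 libraries and with median-ratio scaling (-0.20 and -0.21). That in EIF1AD was lost without shPcyt2-1 replicate 1 (-0.34) or shPcyt2-2 replicate 1 (-0.36). In no named gene did 1 of the 4 knockdown libraries stand far from the other 3. This check took both hairpins as 1 group, so it can miss libraries that differ within a hairpin. EEF1B2 was not flagged, at 175 and 36.3 FPKM with shPcyt2-1 and 122 and 23.6 FPKM with shPcyt2-2. The groups of 2 were not tested for such libraries.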

How the results depend on the processing

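The depth in reads is unknown and 2 libraries per group limit the precision. With no filter on low values, 10 members passed with shPcyt2-1, 1 with shPcyt2-2 and 16 in the difference between the hairpins, in place of 19, 6 and 25. Of all genes 9.38%, 0.631% and 12.4% then passed, in place of 26.7%, 12.4% and 27.1%. On leaving out 1 library at a time, the counts lay between 7 and 21, between 2 and 16 and between 11 and 31. The shares of all tested genes lay between 8.99% and 25.5%, between 0.98% and 14.8% and between 13% and 29.7%. No member passed with the 4 knockdown libraries as 1 group, where the mean of the hairpins from the fit with 3 groups gave 14. Of 82 values of named genes that passed, 26 passed under every alternative and none changed sign, and of the 46 values of members 14 did. Calls were lost for 37 values with no filter, 18 with no mean-variance trend, 15 with median-ratio scaling, 7 with the trend on GC content and length removed, and none with a pseudocount of 0.1 or a minimum mean of 1. The losses given beside single genes above do not list every alternative under which a call was lost. Median-ratio scaling moved the median of all genes by less than 0.1. Libraries with the same replicate number deviated together only weakly (correlations 0.0027, 0.0619 and 0.191), so the numbers were not taken as pairs, and whether they mark a shared day or batch is not given. With the replicate block 22, 7 and 29 members passed, beside 30.4%, 15.9% and 30.3% of all tested genes. No member passed with the block and the knockdown libraries as 1 group.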
